A study of Rattus norvegicus with 11 samples.

Results

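The comparison described here set hearts of Sprague Dawley rats that received isoproterenol and were then exercised against hearts of rats that received isoproterenol alone. It used 6 of the 11 RNA-seq libraries of the series, whose groups come from their labels. The exercise group held libraries 103, 113 and 57, from rats dosed with isoproterenol (5 mg/kg per day, 10 days) that then trained 60 min daily over 4 weeks. The isoproterenol group held libraries 79, 98 and 119, whose rats had that isoproterenol course and nothing else named, so the drug is common to both arms. The tissue is labelled only as cardiac, with no chamber, sex or age, and the kind of exercise is not in the sample labels. The rest of the series, 2 control libraries and 3 from rats given isoproterenol and canagliflozin (3 mg/kg per day for 4 weeks), enters here only as background levels.

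The series title speaks of canagliflozin combined with aerobic exercise, whereas the labels of libraries 103, 113 and 57 name exercise and no canagliflozin. Exercise alone and exercise with canagliflozin therefore cannot be told apart in this group. The labels also do not say whether the rats of the isoproterenol group were kept for the same 4 weeks, so exercise and time since isoproterenol cannot be told apart either. No label ties a library to a rat of its own. The p-values below set the difference between groups against the spread between libraries, which may in part be technical.

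Isoproterenol stimulates beta-adrenergic receptors, and prolonged dosing in rodents produces cardiac hypertrophy, fibrosis and heart failure. Endurance exercise also enlarges the heart, but is known for a growth programme with preserved contraction and little fibrosis. Canagliflozin inhibits the glucose transporter that recovers glucose from urine in the kidney, and drugs of its class are used to treat heart failure.

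Genes are given below by Ensembl ID, because 0 of the 32883 IDs in the deposited table could be paired with a symbol from the sources used here. For the same reason the cardiac tissue label could not be checked against marker genes, and the lists drawn up for fibrosis, calcium cycling, fuel use, retinoid metabolism and other heart programmes (36 lists, 598 symbols) were not analysed here. No gene sequence is printed, since none could be matched to an ID. In bulk tissue, fewer cells of a type and less RNA per cell cannot be told apart.

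Total counts ran from 15429710 to 22067337 per library, and 16916 to 17491 gene IDs had at least 1 count. Of the 6 libraries, isoproterenol library 98 stood furthest from the rest. Its mean distance to the other 5, taken as the root of the mean squared difference in log2 CPM (counts per 1e6 in TMM-scaled library size), was 1.09. Exercise library 57 came next at 0.846, and the other 4 lay between 0.693 and 0.776. Libraries of the same group were not closer to each other than libraries of different groups, with a mean distance of 0.832 over 6 pairs within groups and 0.796 over 9 pairs between them. Within the exercise group, libraries 103 and 113 were 0.498 apart, and library 57 was 0.736 and 0.857 from them. Within the isoproterenol group, libraries 79 and 119 were 0.605 apart, and library 98 was 1.15 from each. Among the 4 libraries that remain when 57 and 98 are set aside, the mean distance over the 4 pairs between groups was 0.578, which lies between the distances of the pairs 103 and 113 and 79 and 119.

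The first principal component held 55.4% of the variance and set library 98 (94.6 units on that axis) and library 57 (30.1 units) apart from the other 4, which lay between -37.7 and -19.8 units. Libraries 98 and 57 come from opposite groups and moved to the same side of it. On the second component (18.4% of the variance) they lay apart, with library 57 at 56.3 units and library 98 at -28.6 units. Among 13143 genes with a mean of at least 1 CPM, library 98 was more than 2-fold below all 5 others in 777 genes and more than 2-fold above all 5 in 399. The same counts were 94 and 58 for library 57, and 111 and 20 for library 79. They were at most 31 in libraries 103, 113 and 119. The low values of library 98 were most frequent among abundant genes, where it lay more than 2-fold below all others in 178 of 1282 genes at or above 100 CPM (13.9%), against 301 of 7116 genes at 10 to 100 CPM (4.23%) and 298 of 4745 at 1 to 10 CPM (6.28%).

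**Figure D1:**
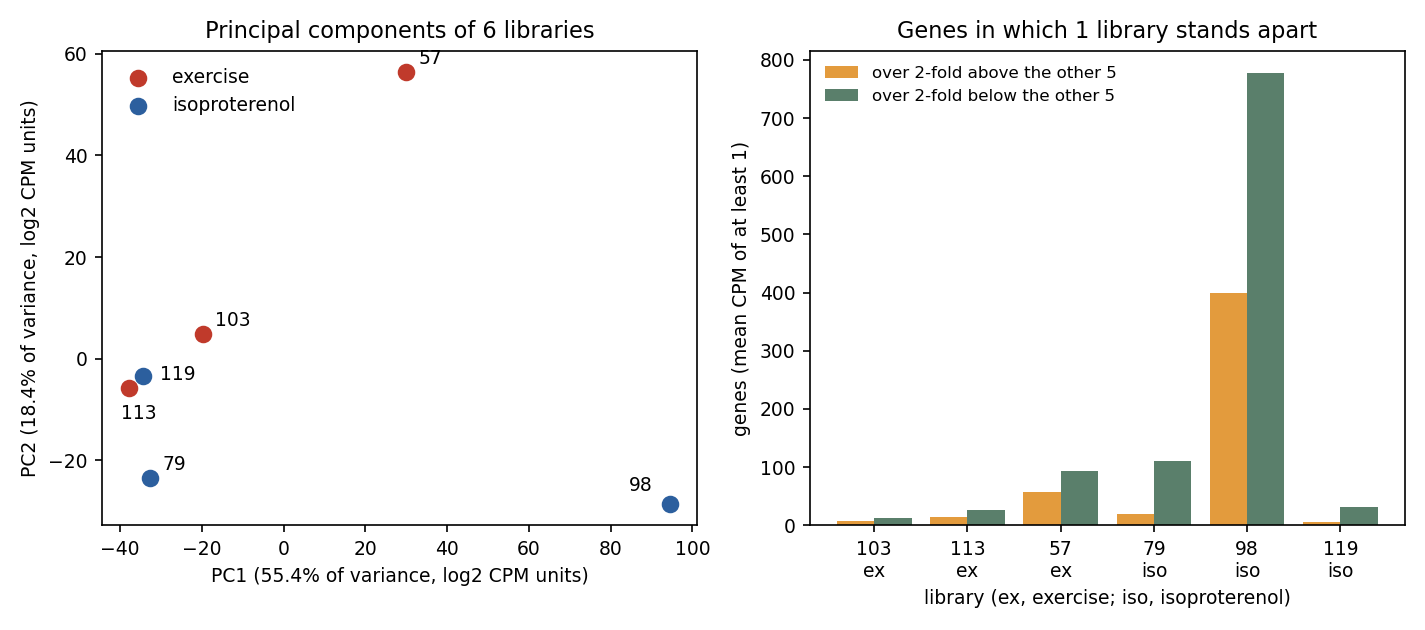
Left, the 6 libraries on the first and second principal components of log2 CPM, in log2 CPM units, coloured by group. Right, for each library, the number of genes (mean of at least 1 CPM) in which it was more than 2-fold above or below all 5 others, where library 98 reached 399 and 777.

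Exercise was compared with isoproterenol alone to find genes whose level differed in the exercised hearts. With all 6 libraries, edgeR's quasi-likelihood test called 0 of 14127 genes tested (0% called) at a Benjamini-Hochberg adjusted p under 0.05. The lowest adjusted p of any gene was 0.9999. An unadjusted p under 0.05 was reached by 346 genes (2.45% of those tested), where 5% of the tested genes would be 706. Of these, 172 were higher with exercise (1.22% of those tested) and 174 lower (1.23%). limma-voom called 0 genes as well, with 324 at an unadjusted p under 0.05. DESeq2 called 4 genes, 3 higher and 1 lower, and had 472 of 19871 genes at an unadjusted p under 0.05, over a larger set of genes than edgeR tested. Without its filter on low counts, edgeR had 472 of 19905 and called 0. The groups did not overlap, meaning that all 3 libraries of one group lay above all 3 of the other, in 1201 genes (8.5% of those tested), of which 577 were higher (4.08%) and 624 lower (4.42%) with exercise.

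Fold changes were small for most genes. The log2 fold change, as exercise minus isoproterenol, had a median of -0.01, and its middle 90% lay between -0.63 and 0.65. The median absolute difference between the group means was 0.22 in log2 CPM. Between single libraries, which unlike group means are not averaged, the median absolute difference within a group was 0.22 for 103 and 113 and 0.27 for 79 and 119. It was 0.37 and 0.45 for library 57 against 103 and 113, and 0.63 and 0.62 for library 98 against 79 and 119. Between single libraries of different groups it was 0.26 to 0.30 among 103, 113, 79 and 119, and 0.45 to 0.63 in pairs with 57 or 98. The median standard deviation of log2 CPM was 0.43 in the isoproterenol group and 0.30 in the exercise group.

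A difference of at least 2-fold, which is 1 on the log2 scale, was fitted in 463 genes (3.28%), 237 higher and 226 lower. This count and its split depended on the libraries and the tool. It was 609 without library 98 (432 higher, 177 lower), 1089 without library 119 (627 higher, 462 lower), 820 without library 79, 717 without library 103 and 697 without library 113. Without library 57 it was 694 and the split tipped to lower (278 higher, 416 lower). Without both 57 and 98 it was 444 (273 higher, 171 lower). limma-voom on the same 6 libraries gave 569, of which 392 were higher and 177 lower. DESeq2 on them gave 2920 of 19871 genes, and edgeR without its filter on low counts gave 3713 of 19905. Both took in genes with low counts that the main fit had filtered out. The fit of all 11 libraries gave 781 of 14979. With all 6 libraries in edgeR, the 463 were more frequent among weakly expressed genes. They made up 123 of 984 genes with a mean below 1 CPM (12.5%), 228 of 4745 at 1 to 10 CPM (4.81%), 89 of 7116 at 10 to 100 CPM (1.25%) and 23 of 1282 at or above 100 CPM (1.79%). The plot of effect size against expression level shows the same narrowing. The groups did not overlap in 147 of the 463 genes, beside 1201 of all 14127 tested (8.5%). The 463 were picked by a large difference in these same libraries, so their separation adds no support.

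The precision of these fold changes set what the comparison could show. The median standard error was 0.34 on the log2 scale, and the 95% interval reached a median of 0.79 to either side of the estimate. For 6501 genes (46.0%) the whole interval lay inside a 2-fold change in either direction. The share was 67.1% of genes at 10 to 100 CPM, 24.5% at 1 to 10 CPM and 0% below 1 CPM. At or above 100 CPM it was 44.1%, since the median standard error there, 0.35, was larger than the 0.27 at 10 to 100 CPM. For the other genes the interval left room for a 2-fold difference. The common biological coefficient of variation, the spread between libraries beyond counting noise, was 0.376 with all 6 libraries, 0.283 without library 98, 0.377 without library 57 and 0.208 without both.

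**Figure D2:**
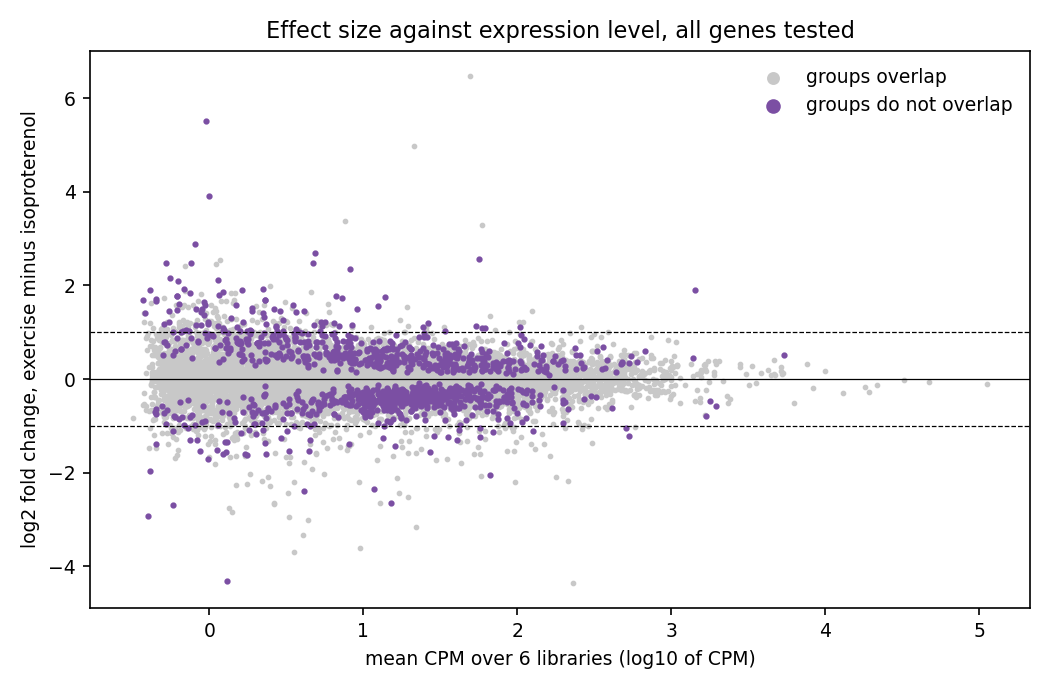
Log2 fold change (exercise minus isoproterenol, 6 libraries) of each of the 14127 genes tested against the log10 of its mean CPM. Purple points are the 1201 genes whose groups did not overlap, and dashed lines mark a 2-fold change in either direction, past which 463 genes lie.

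Most of the larger fold changes among well expressed genes rested on library 98. There were 112 genes with a mean of at least 10 CPM and a fitted difference of at least 2-fold, 30 higher and 82 lower with exercise. Without library 98, 24 of the 112 were still at least 2-fold in the same direction, 15 higher and 9 lower, and 93 kept their direction. Without library 57, 86 of the 112 were still at least 2-fold in the same direction, 15 of the 30 higher and 71 of the 82 lower. Leaving out any of the other 4 libraries left between 96 and 108. Of the 112, the groups did not overlap in 28 genes, 11 higher and 17 lower. The share over all genes tested was 8.5%, and the 112 were picked by their difference in these same libraries. Of these 28 genes, 9 stayed at least 2-fold without library 98, 5 higher and 4 lower.

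The number of small p-values moved the other way. Without library 98, edgeR gave 791 genes with an unadjusted p under 0.05 (5.5% of 14378 tested), 517 higher and 274 lower, where 5% of those tested would be 719. No gene was called, and the smallest adjusted p was 0.0505. Without library 57 alone there were 310, and without both 57 and 98 there were 1133 (7.99% of 14178 tested), 663 higher and 470 lower. An unadjusted p under 0.05 in the same direction, both with all 6 libraries and without library 98, was found for 193 genes. Such shared genes numbered 111 without library 103, 148 without 57, 149 without 113, 176 without 79 and 238 without 119. These fits share most of their libraries with the main fit, so part of that sharing is built in. All genes at an unadjusted edgeR p under 0.05 numbered 629 without isoproterenol library 119. They numbered 146 without exercise library 103, the shallowest of the 6. A fit of all 6 libraries by limma-voom with sample quality weights, which gave library 98 a weight of 0.180 and library 57 a weight of 0.456 against 1.43 to 4.00 in the others, called 0 genes and had 1212 at an unadjusted p under 0.05.

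**Figure D3:**
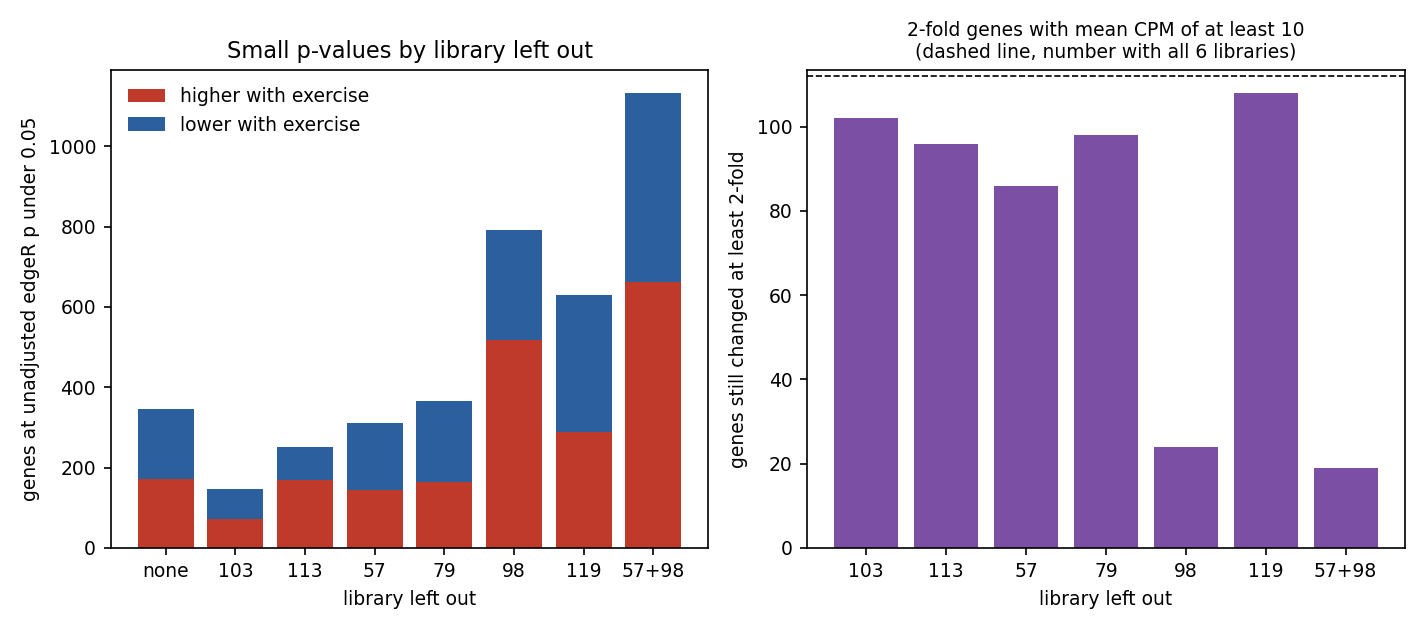
Left, genes at an unadjusted edgeR p under 0.05, stacked by direction, with all 6 libraries (none) and with each library or libraries 57 and 98 left out; the number runs from 146 without library 103 to 1133 without 57 and 98. Right, how many of 112 genes (dashed line) with a mean of at least 10 CPM and a 2-fold change stayed 2-fold in the same direction, which fell to 24 without library 98.

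The genes with the smallest unadjusted p in each direction are given with their values in every library, as none passed the edgeR threshold. Since a low p chose them, their separation is a description and adds no support.

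ENSRNOG00000021027 was at 83.0, 156.8 and 50.7 CPM in exercise libraries 103, 113 and 57, and at 9.33, 20.0 and 20.0 CPM in isoproterenol libraries 79, 98 and 119. The lowest exercise library lay above the highest isoproterenol library. The group means were 96.8 ± 54.4 CPM (SD, n = 3) and 16.5 ± 6.17 CPM (n = 3), and the log2 fold change was 2.56 (SE 0.490, 95% interval 1.41 to 3.70, edgeR unadjusted p = 0.00103). Control libraries 115 and 95 were at 113.6 and 62.1 CPM, in the range of the exercise group. Library 95 held counts in 14692 gene IDs, fewer than any other library of the series, and had a TMM factor of 0.545. In the canagliflozin libraries the ID was at 14.0 CPM in library 78, in the isoproterenol range, and at 127 and 76.8 CPM in libraries 133 and 143. Its log2 fold change was 2.71 without library 98 and 3.02 without libraries 57 and 98, so it did not rest on either. DESeq2 called it (adjusted p = 0.00492), 1 of 4 calls by that tool.

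ENSRNOG00000020837 showed the opposite order. It was at 13.5, 11.9 and 16.0 CPM in exercise libraries 103, 113 and 57 and at 35.6, 57.6 and 28.1 CPM in isoproterenol libraries 79, 98 and 119. The groups did not overlap, and library 98 was the highest of the 6. The log2 fold change was -1.55 (SE 0.305, 95% interval -2.26 to -0.84, edgeR unadjusted p = 0.00121), and it was -1.21 without library 98 and -1.32 without 57 and 98. Control libraries 115 and 95 were at 14.3 and 10.1 CPM, close to the exercise libraries. Canagliflozin library 78, at 34.7 CPM, lay in the isoproterenol range, and libraries 133 and 143 were at 6.88 and 12.6 CPM.

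The other 2 IDs had few counts in one group. ENSRNOG00000050998 had 25, 47 and 40 counts in exercise libraries 103, 113 and 57, and 2, 0 and 0 in isoproterenol libraries 79, 98 and 119. From the summed counts, 112 against 2, the exercise level was 55.3 times the isoproterenol level, with a 95% exact interval of 14.96 to 462 that covers counting error only, as do the exact intervals given for other IDs below. It was 34.7 times without libraries 57 and 98 (72 against 2 counts, exact interval 9.26 to 292). Library 79 held both isoproterenol counts, and the fitted log2 fold change went from 5.51 with all 6 libraries to 8.22 without it, which leaves the isoproterenol group at 0 counts. The 2 control libraries differed, with 0 counts in library 115 and 14 in library 95, and the canagliflozin libraries held 0 to 2 counts. ENSRNOG00000008100 had 3, 4 and 0 counts in the exercise libraries 103, 113 and 57, and 41, 84 and 20 in isoproterenol libraries 79, 98 and 119. Its exercise level was 0.0477 times the isoproterenol level (7 against 145 counts, exact interval 0.0188 to 0.101), and 0.111 times without libraries 57 and 98 (7 against 61 counts, exact interval 0.0427 to 0.242). ENSRNOG00000008100 had 5 and 0 counts in control libraries 115 and 95, and 35, 0 and 2 in canagliflozin libraries 78, 133 and 143. Both IDs were among the DESeq2 calls, with DESeq2 adjusted p of 0.0115 and 0.016.

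Per length, in the authors' deposited FPKM, the 4 IDs covered a wide range of levels in the exercise group. ENSRNOG00000021027 had the highest mean there, 30.5 FPKM, followed by ENSRNOG00000020837 at 11.05 FPKM, ENSRNOG00000050998 at 2.43 FPKM and ENSRNOG00000008100 at 0.0286 FPKM. In the isoproterenol group the order of the first pair was inverted, with ENSRNOG00000020837 at 33.2 FPKM and ENSRNOG00000021027 at 5.16 FPKM.

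The fourth gene that DESeq2 called, ENSRNOG00000012067, was not separated between the groups and is given because of that call, after its values had been seen. It was at 146 and 144 CPM in exercise libraries 103 and 57, but at 1.54 CPM in exercise library 113, the same level as the 0.394 to 1.54 CPM of the isoproterenol libraries. Its mean with exercise therefore rested on 2 of 3 libraries. The high level was also not particular to exercised rats, since canagliflozin library 78 was at 256 CPM while the other canagliflozin libraries and both control libraries were between 0.927 and 3.45 CPM.

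Without libraries 57 and 98, which leaves 2 libraries per group, edgeR called 4 of 14178 genes (0.0282%), 3 higher and 1 lower with exercise. DESeq2 called 57 on the same 4 libraries and limma-voom 0. Libraries 57 and 98 were the furthest from the rest in these same counts. Without them the common biological coefficient of variation went from 0.376 to 0.208. The adjusted p-values of this edgeR fit, given below, therefore hold only under that removal. The 4 edgeR genes are named because they were called, and were chosen after their values had been seen. In each of them a library that had been left out bore on the result, as the plot of levels in every library shows.

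ENSRNOG00000053790 was at 16.6, 11.1 and 13.6 CPM in exercise libraries 103, 113 and 57. It had 0 counts in isoproterenol libraries 79 and 119, which allows up to 3 counts in each, and was at 7.98 CPM (162 counts) in library 98. Against that floor of 3 counts per library, the level in libraries 103 and 113 was at least 87.8-fold higher than in 79 and 119, with an edgeR adjusted p of 0.0165. That bound allows for counting error in libraries 79 and 119 only, and not for the spread between libraries. With all 6 libraries the ratio of summed counts was 4.85, the log2 fold change 2.36 (SE 1.496) and the edgeR adjusted p 1, so the call rested on leaving out library 98. Outside these groups the ID was also at 0 counts in control library 95 and canagliflozin library 143, and at 201 to 356 counts in control library 115 and canagliflozin libraries 78 and 133. Counts of 0 and counts above 100 thus both occurred in the control, canagliflozin and isoproterenol groups, and all 3 exercise libraries were among those with counts.

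ENSRNOG00000011094 was at 18.3, 27.7 and 18.3 CPM in exercise libraries 103, 113 and 57, and at 2.78, 12.9 and 3.33 CPM in isoproterenol libraries 79, 98 and 119. The groups did not overlap with all 6 libraries, but library 98 lay nearer to the exercise libraries than to its own group. The log2 fold change was 1.75 (SE 0.593, edgeR adjusted p = 1) with 6 libraries and 2.91 (SE 0.271, adjusted p = 0.0313) without 57 and 98. Control libraries 115 and 95 were at 28.0 and 12.3 CPM, and the canagliflozin libraries at 4.02 to 11.3 CPM.

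ENSRNOG00000033844 changed direction with library 98. It was at 29.7, 30.2 and 25.1 CPM in exercise libraries 103, 113 and 57 and at 6.78 and 8.35 CPM in isoproterenol libraries 79 and 119, but at 245 CPM in library 98. The log2 fold change was -1.61 (SE 1.24) with all 6 libraries and 1.98 (SE 0.193, edgeR adjusted p = 0.0313) without 57 and 98. The only other library at such a level was control library 95, at 282 CPM.

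ENSRNOG00000005154 was lower with exercise in the 4 libraries, at 0.0621 and 0.0426 CPM in libraries 103 and 113 (1 count each) against 3.33 and 3.53 CPM in libraries 79 and 119. The exercise level was 0.0147 times the isoproterenol level there, with an exact interval of 0.00176 to 0.0542 on 2 against 131 counts that covers counting error only, and the edgeR adjusted p was 0.049. Libraries 57 (0.919 CPM) and 98 (0.197 CPM) went against this order. With all 6 libraries the groups overlapped, the exercise level was 0.146 times the isoproterenol level (20 against 135 counts) and the edgeR adjusted p was 1.

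**Figure D4:**
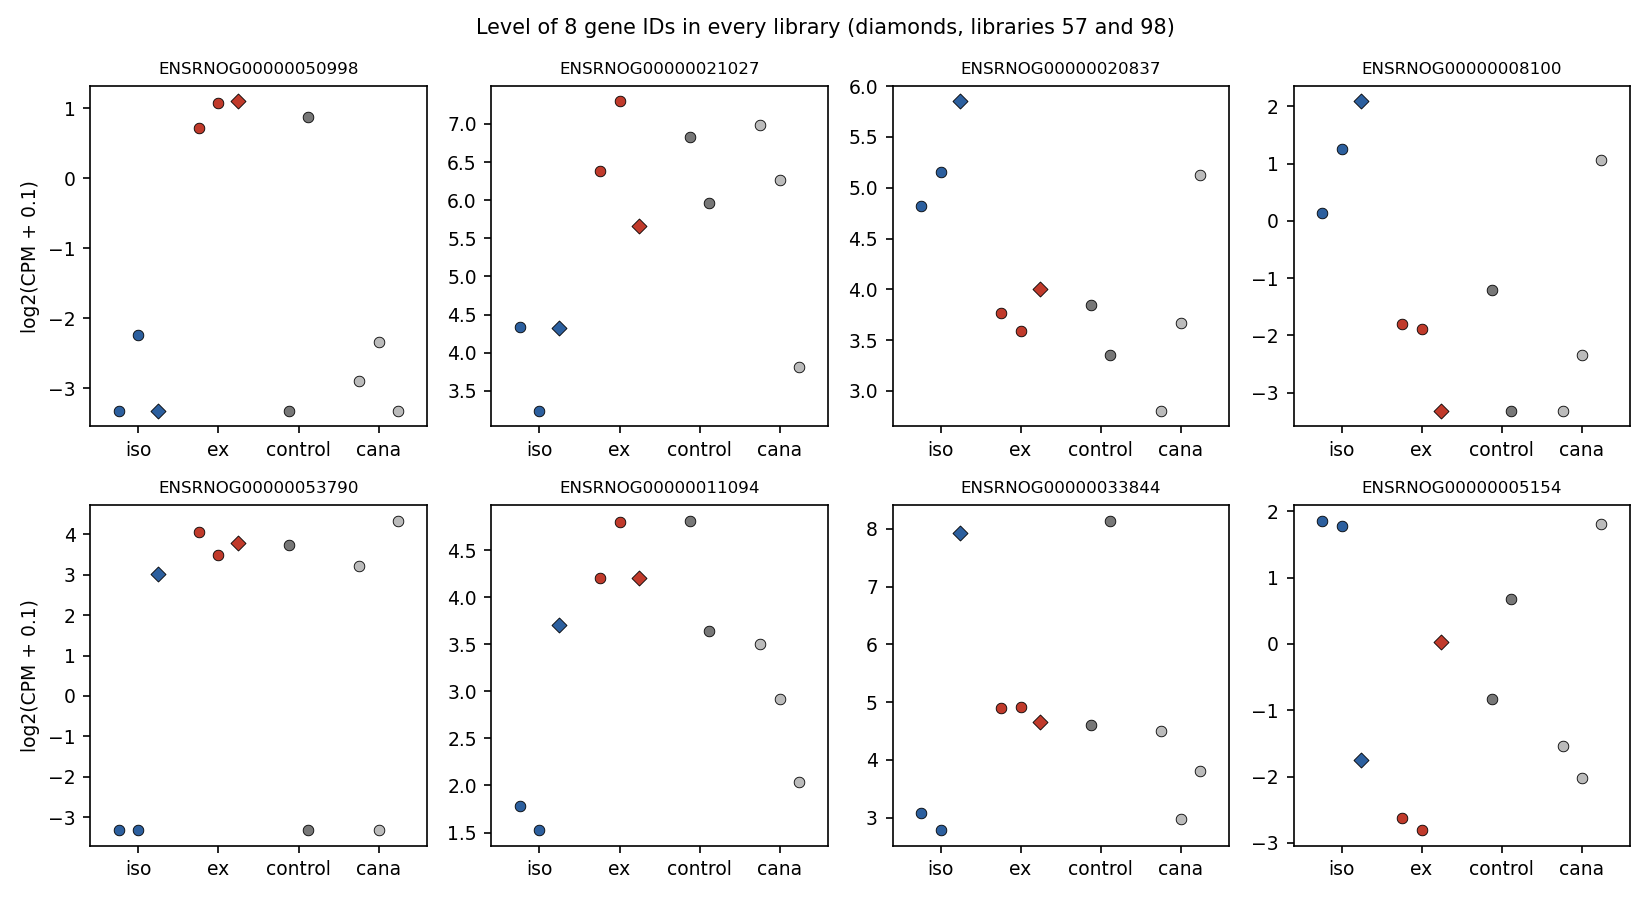
Level of 8 gene IDs, as log2(CPM + 0.1), in each isoproterenol (iso), exercise (ex), control and canagliflozin (cana) library; each point is 1 library and diamonds are libraries 57 and 98. The upper row holds the 4 IDs with the smallest p with all 6 libraries, where exercise and isoproterenol libraries do not overlap, and the lower row the 4 IDs called by edgeR without 57 and 98, where in ENSRNOG00000033844 library 98 is at 245 CPM.

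Longer and shorter gene models also differed in fold change. Across the 14127 genes, which are not independent of each other, length and log2 fold change had a Spearman correlation of -0.165. The median log2 fold change was 0.06 in the shortest of 4 equal classes (60 to 1509 bases) and -0.11 in the longest (3904 to 33307 bases). The correlation was as large without library 98, at -0.202, and it was -0.143 without 57 and 98. Set against the mean of the other 5 libraries, library 119 had a correlation of 0.227 with length and library 57 one of -0.184, while the other 4 lay between -0.0426 and 0.00341. With the length trend of each library removed as an offset, edgeR called 0 genes and 294 were at an unadjusted p under 0.05.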

How the data were processed

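Cardiac RNA of rats was sequenced. CASAVA 1.8 and TopHat2 2.0.6 were used, per the submitters' processing notes. Build, annotation, counter and strand setting: not given in the sources used here. Overlapping or near-identical genes are therefore uncertain. The authors deposited 1 table of raw counts per Ensembl gene ID, with FPKM (counts per kilobase of gene model and 1e6 counted reads) for each library, per the file headers. Gene model lengths were computed from count and FPKM.

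The 6 libraries were fitted alone with edgeR 4.0.16 (R 4.3.3): filterByExpr left 14127 genes, with TMM factors, a robust quasi-likelihood fit with 2 group means and Benjamini-Hochberg adjustment over all genes tested. CPM of control and canagliflozin libraries used TMM factors against the same reference library. log2 CPM used a prior count of 2. Standard errors are the log2 fold change divided by the root of F. Alternatives were DESeq2 1.42.0, limma-voom (limma 3.58.1), other normalisations and filters, a fit of all 11 libraries, a gene length offset and leaving out libraries. Added once the data were known were DESeq2 and limma-voom without 57 and 98 or without 98, sample quality weights and the count of 2-fold genes. No 2 libraries held identical values, and pairs within a group differed beyond counting noise (chi-square per degree of freedom 30.6 to 301).

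The comparison and the lists were chosen with earlier results of these data known. IDs were given by the smallest unadjusted p, 2 in each direction, because the rule for named genes asked for symbols and 0 IDs had one. Figures were drawn with matplotlib 3.10.9.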

Additional observations from a re-analysis of the deposited data

How the results depend on the processing

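No paired analysis was possible because the library numbers of the groups are all different. The number of genes called by edgeR stayed at 0 under both other normalisations, both other filters, the fit of all 11 libraries, the length offset and the removal of any single library (0 to 0), and at 0 with limma-voom. It was 4 with DESeq2 and 4 without libraries 57 and 98. On those 4 libraries DESeq2 called 57, and without library 98 alone it called 22. Genes at an unadjusted p under 0.05 numbered 222 in the fit of all 11 libraries, 1133 without libraries 57 and 98, and 146 to 791 without any single library. On the 4 libraries they numbered 892 with DESeq2 and 1151 with limma-voom, without library 98 alone 829 and 759, and 1212 with sample quality weights. Genes whose groups did not overlap numbered 1948 (of 14447 tested, without library 103) to 3665 (of 14378, without library 98) when any single library was left out. They numbered 5760 of 14178 without 57 and 98. Fewer libraries have to be separated in these fits, so the counts cannot be compared with the 1201 of all 6 libraries. ENSRNOG00000033844 ran from -2.16 to 1.90 in log2 fold change without any single library. It reversed to a log2 fold change of 0.22 with limma-voom on all 6 libraries, 1.65 with sample quality weights, 1.90 without library 98 by edgeR and 1.90 by DESeq2, and 1.89 by limma-voom. Without 57 and 98 it was 1.98 by edgeR, 1.98 by DESeq2 and 1.98 by limma-voom. The other 8 IDs given kept their direction under every alternative that tested them. The cause of these shifts was not tested. At this depth no gene with a mean below 1 CPM had a 95% interval inside a 2-fold change with all 6 libraries.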
